A study of Homo sapiens with 4 samples.

Results

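The miR-106b-25 and miR-106a-363 clusters are paralogous groups of miRNA genes, and 10 of their mature products were followed here among 2656 mature miRNAs counted in HEK293T cells. The members were chosen by name, with earlier results of these data known. Of these, 6 come from miR-106b-25 (both arms of hsa-miR-106b, hsa-miR-93 and hsa-miR-25) and 4 from miR-106a-363 (hsa-miR-106a-5p, hsa-miR-18b-5p, hsa-miR-20b-5p and hsa-miR-363-3p). HEK293T cells descend from kidney cells of a human embryo and express large T antigen of the virus SV40. Each cell line was monoclonal and held a landing pad, a genomic site built to receive a transgene. In the CAG lines the pad had the CAG promoter, a hybrid that joins an enhancer of cytomegalovirus to the promoter of chicken beta-actin. In the PGK lines it had the promoter of the phosphoglycerate kinase gene. Small RNA was sequenced from 2 libraries per promoter, to find miRNAs that differ in level between the lines.

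A miRNA hairpin is cut into a 5p and a 3p arm, and the arm that is loaded into an Argonaute protein guides it to mRNAs that pair with the seed, bases 2 to 8 of the arm. The miR-106b-25 cluster lies inside MCM7, a gene for a subunit of the helicase that opens DNA for replication, and is transcribed with it under E2F control. Its miR-106b-5p and miR-93-5p share their seed with miR-17-5p and repress CDKN1A, an inhibitor of the cell cycle, while miR-25-3p shares its seed with miR-92a-3p and represses BCL2L11, which promotes apoptosis. The miR-106a-363 cluster is an X-linked copy of miR-17-92, the cluster on chromosome 13 that is known for its role in growth and cancer.

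In GENCODE release 29 (GRCh38), MIR106B (chr7:100093993-100094074), MIR93 (chr7:100093768-100093847) and MIR25 (chr7:100093560-100093643) lie on the minus strand within 515 bases. All 3 hairpins are intronic in the 8 MCM7 transcripts that span them. On chromosome X, MIR106A (chrX:134170198-134170278), MIR18B (chrX:134170041-134170111), MIR20B (chrX:134169809-134169877) and MIR363 (chrX:134169378-134169452) lie on the minus strand within 901 bases. The span also holds MIR19B2 and MIR92A2. Each of these hairpins overlaps the exon of the non-coding transcript AC002407.1, and none lies in an intron of it. The sources used here name no build for the deposited counts, and no coordinate enters a count or a test.

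The mature sequences show which members share a seed, and how little the X-linked copies differ from their chromosome 13 relatives. All 10 members have a sequence in RefSeq (GRCh38.p14). Each is written 5′ to 3′ with the seed in capitals. The first group carries the miR-17 seed, and miR-17-5p and miR-20a-5p of miR-17-92 are shown for comparison.
hsa-miR-106b-5p: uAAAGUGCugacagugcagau
hsa-miR-93-5p: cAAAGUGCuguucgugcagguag
hsa-miR-106a-5p: aAAAGUGCuuacagugcagguag
hsa-miR-20b-5p: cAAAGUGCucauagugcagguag
hsa-miR-17-5p: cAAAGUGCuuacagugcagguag
hsa-miR-20a-5p: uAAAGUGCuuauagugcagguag
The second group carries the miR-25 seed, with miR-92a-3p of miR-17-92 for comparison.
hsa-miR-25-3p: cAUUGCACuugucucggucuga
hsa-miR-363-3p: aAUUGCACgguauccaucugua
hsa-miR-92a-3p: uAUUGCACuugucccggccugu
The third group carries the miR-18 seed, which differs from the miR-17 seed by a single base, with miR-18a-5p for comparison.
hsa-miR-18b-5p: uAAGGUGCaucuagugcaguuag
hsa-miR-18a-5p: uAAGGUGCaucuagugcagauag
The remaining arms of miR-106b-25 each have a seed of their own among the miRNAs of the deposited table.
hsa-miR-106b-3p: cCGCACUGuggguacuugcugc
hsa-miR-93-3p: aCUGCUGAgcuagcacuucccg
hsa-miR-25-5p: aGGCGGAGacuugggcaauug

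With positions counted from 1 at the 5′ end, the relative's base first and the member's base last, miR-106a-5p differs from miR-17-5p by C1A alone. miR-18b-5p differs from miR-18a-5p by A20U alone. miR-20b-5p differs from miR-20a-5p by U1C and U10C. A read of miR-106a-5p that lacks its first base is therefore the same as a read of miR-17-5p that lacks its own. The sources used here do not say how reads matching several miRNAs were counted, so the split between these pairs is uncertain.

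The libraries held 13780279 and 2845945 counts in CAG replicates 1 and 2, and 7927615 and 7331437 counts in PGK replicates 1 and 2. Levels are given as CPM, in which each count is divided by its library's total after a TMM correction for composition. A single read was worth 0.324 CPM in CAG replicate 2, the shallowest library, and 0.0777 CPM in CAG replicate 1, the deepest. Of 16 miRNAs that mark blood, liver, neurons, muscle or pluripotent cells, 15 stayed under 5 CPM in every library. Among them miR-223-3p, miR-302a-3p, miR-302d-3p and miR-367-3p had no read, and the list summed to 19.96 and 18.2 CPM in CAG and 108 and 101 CPM in PGK libraries. Most of that was miR-1-3p, a muscle miRNA, at 16.5 and 15.6 CPM in CAG and 104 and 94.0 CPM in PGK libraries. It was called lower in CAG (log2 fold change, CAG minus PGK, -2.61, edgeR adjusted p = 9.3e-06). So was miR-133a-3p, also of muscle, with 4 and 0 reads in CAG and 20 and 14 in PGK libraries (-3.09, edgeR adjusted p = 0.0171). The only other tested marker, miR-122-5p, was not called. The part of these miRNAs in the results below was not tested. No miRNA list that defines HEK293T was used, so the label was not checked further. The labels do not say whether replicates were separate cultures or clones. P-values thus measure only the spread between these 4 libraries, and an effect of the promoter cannot be told apart from one of the clone. In bulk samples, fewer cells that make a miRNA and less of it per cell cannot be told apart either.

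The chromosome 7 cluster was strongly expressed and the X-linked cluster weakly. Together the 6 members of miR-106b-25 took 3.15% and 3.45% of all counts in CAG replicates 1 and 2, and 3.78% and 4.07% in PGK replicates 1 and 2. The 4 members of miR-106a-363 took 0.0346% and 0.0340% in CAG and 0.0376% and 0.0406% in PGK libraries. From the highest to the lowest mean level, the order was miR-25-3p, miR-106b-3p, miR-93-5p, miR-106b-5p, miR-106a-5p, miR-25-5p, miR-93-3p, miR-20b-5p, miR-18b-5p and miR-363-3p. Of the 9 neighbouring pairs in this order, miR-106b-3p and miR-93-5p alone had overlapping ranges over the 4 libraries. Adapter ligation favours some RNA ends, so this order is less certain than a comparison of the same miRNA across libraries.

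**Figure D1:**
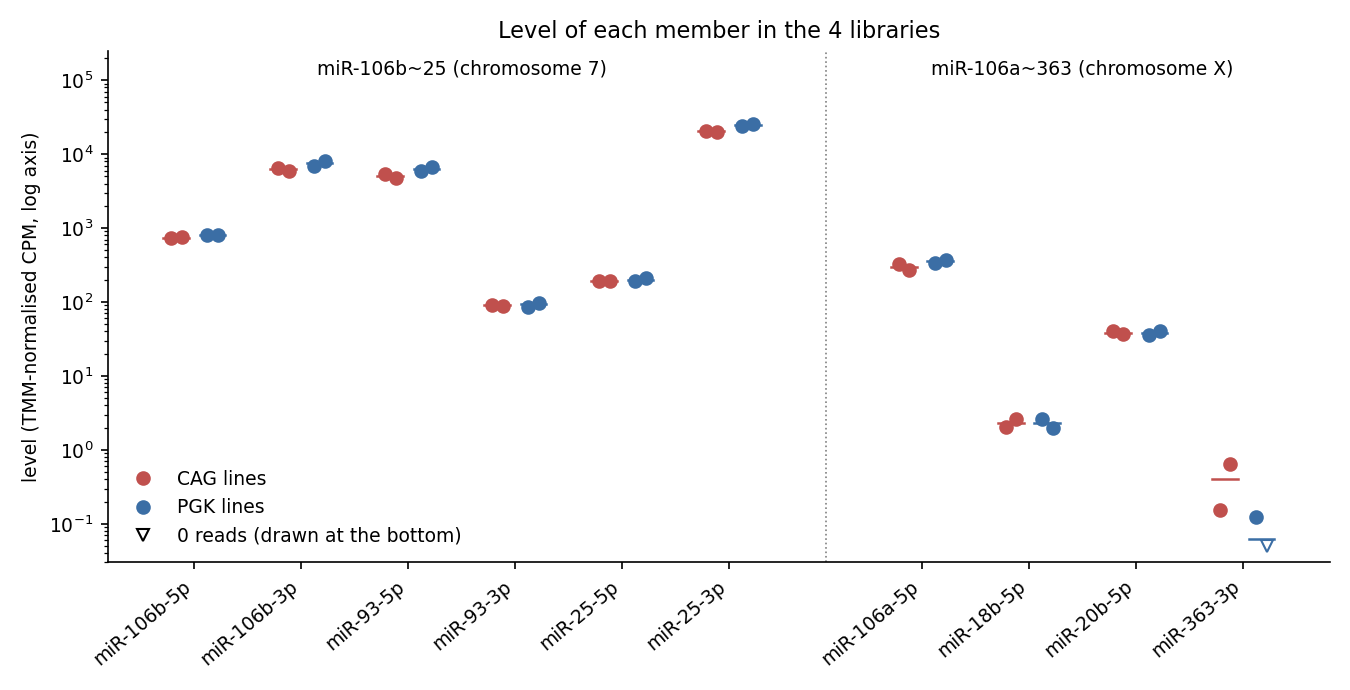
Level of each member in TMM-normalised CPM on a log axis, with 1 point per library, the CAG libraries left of the PGK libraries, and a bar at the group mean; an open triangle marks 0 reads. miR-25-3p lies between 20078 and 25620 CPM in all libraries, miR-106a-5p between 274 and 372 CPM, and the points of the groups lie close together for every member but miR-363-3p, which rests on 5 reads.

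hsa-miR-25-3p, the most abundant member, ranked 9 among all miRNAs by mean level. It stood at 20637 and 20078 CPM in CAG replicates 1 and 2, and at 23643 and 25620 CPM in PGK replicates 1 and 2. Both CAG libraries were thus below both PGK libraries. Its log2 fold change (CAG minus PGK) was -0.27 (95% interval -0.59 to 0.04; edgeR quasi-likelihood adjusted p = 0.241). The less abundant arm hsa-miR-25-5p, at 191 and 195 CPM in CAG and 191 and 210 CPM in PGK libraries, overlapped between the groups. Its log2 fold change was -0.05 (95% interval -0.45 to 0.35).

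hsa-miR-93-5p, a carrier of the miR-17 seed, stood at 5444 and 4696 CPM in CAG and 5930 and 6720 CPM in PGK libraries. The groups did not overlap, and the log2 fold change of -0.32 (95% interval -0.68 to 0.04; edgeR adjusted p = 0.233) was the farthest from 0 among the members. hsa-miR-93-3p, its other arm, stood at 92.3 and 87.5 CPM in CAG and 86.7 and 98.4 CPM in PGK libraries, with overlap and a log2 fold change of -0.04 (95% interval -0.46 to 0.38).

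From the miR-106b hairpin, the 3p arm gave most of the reads. hsa-miR-106b-3p stood at 6556 and 5989 CPM in CAG and 6876 and 8131 CPM in PGK libraries. The CAG libraries were again below the PGK libraries, with a log2 fold change of -0.26 (95% interval -0.61 to 0.10; edgeR adjusted p = 0.318). hsa-miR-106b-5p, the arm with the miR-17 seed, stood at 741 and 746 CPM in CAG and 796 and 811 CPM in PGK libraries. It too did not overlap, by a smaller margin, with a log2 fold change of -0.11 (95% interval -0.49 to 0.26; edgeR adjusted p = 0.722).

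In the X-linked cluster, hsa-miR-106a-5p supplied most of the reads, between 87.3% and 89.7% of the 4 members' sum in every library. It stood at 328 and 274 CPM in CAG and 335 and 372 CPM in PGK libraries. The groups did not overlap, and the log2 fold change was -0.23 (95% interval -0.64 to 0.19; edgeR adjusted p = 0.464). hsa-miR-20b-5p, which is known to repress HIF1A and VEGFA in human breast cancer cells, stood at 40.1 and 36.6 CPM in CAG and 35.5 and 41.1 CPM in PGK libraries. Its groups overlapped, with a log2 fold change of 0.01 (95% interval -0.46 to 0.48).

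The last members were close to the limit of detection. hsa-miR-18b-5p had 26 and 8 reads in CAG replicates 1 and 2 and 21 and 14 reads in PGK replicates 1 and 2, or 2.02 and 2.59 CPM in CAG against 2.63 and 1.95 CPM in PGK libraries. Its log2 fold change was -0.10, with a 95% interval of -1.07 to 0.88, so no difference within that range can be set aside at this depth. hsa-miR-363-3p, the X-linked carrier of the miR-25 seed, had 2 and 2 reads in CAG and 1 and 0 reads in PGK libraries and did not pass the filter on low counts. The pooled ratio, scaled to library size, was 3.80 with a 95% exact interval of 0.376 to 187, so neither a difference nor its absence was detectable. This interval covers counting error only, as do the binomial intervals below, because reads amplified by PCR without molecular identifiers are not independent molecules.

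None of the 9 tested members was called different between CAG and PGK lines (edgeR quasi-likelihood test, adjusted p under 0.05), while 14.2% of the 773 miRNAs tested were called, 8.15% higher and 6.08% lower in CAG. The edgeR test had 0 of the 9 at an unadjusted p under 0.05, against 208 of all 773. DESeq2 called none of the 8 members for which it gave an adjusted p (none was given for miR-18b-5p), and limma-voom called none of the 9. Estimates lay below 0 for 8 of 9 members, with a median log2 fold change of -0.11 over the 9 and -0.0042 over all tested miRNAs. For 5 of 9, namely miR-25-3p, miR-93-5p, both miR-106b arms and miR-106a-5p, both CAG libraries were below both PGK libraries, which held for 27.4% of all tested miRNAs. No tested member had both CAG libraries above both PGK libraries, which held for 29.8%. miR-25-3p, miR-106b-3p and miR-93-5p were among 78 miRNAs that averaged at least 1000 CPM. Of these 78, 30 had both CAG libraries below both PGK libraries and 17 had both above. Their median log2 fold change was -0.071. Members of a cluster come from the same primary transcript and the same libraries, so the values of the members are not independent readings. The 95% intervals of the 6 miR-106b-25 products reached no further than -0.68 on the low side and 0.38 on the high side. A p above the threshold does not show that the lines are alike.

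**Figure D2:**
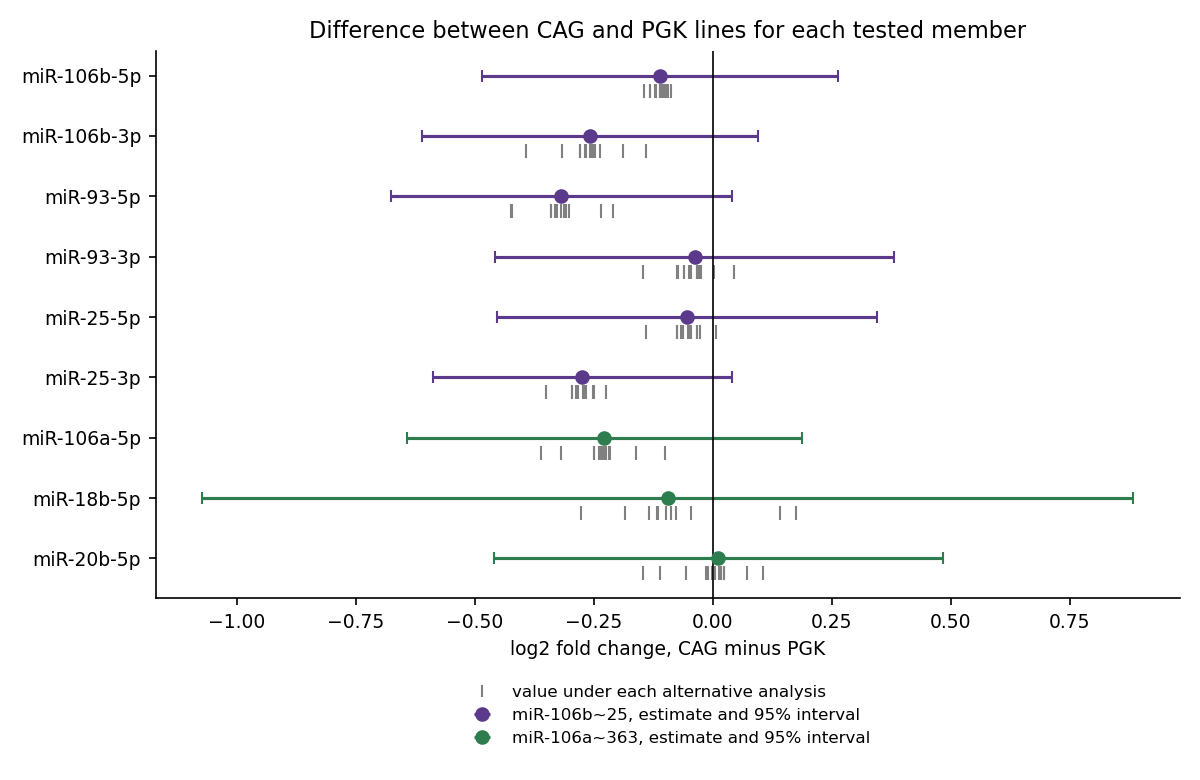
Estimated log2 fold change (CAG minus PGK) of each tested member with its 95% interval from edgeR, and grey ticks below for the value under each alternative analysis. Every interval crosses 0; the estimates run from -0.32 for miR-93-5p to 0.01 for miR-20b-5p, and the ticks of miR-93-3p, miR-25-5p, miR-18b-5p and miR-20b-5p fall on both sides of 0.

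The ratio of the strong to the weak cluster, taken over the members only, overlapped between CAG and PGK lines. Most of the X-linked sum was miR-106a-5p, whose split from miR-17-5p is uncertain. The sum left out miR-19b-3p and miR-92a-3p, whose source cluster the counts do not give. Summed reads of the 6 miR-106b-25 members were 90.9 and 101.4 times those of the 4 miR-106a-363 members in CAG replicates 1 and 2, and 100.6 and 100.3 times in PGK replicates 1 and 2. Both numbers come from the same library, so the ratio does not depend on scaling. CAG replicate 1 was the lowest and CAG replicate 2 the highest, so the groups overlapped. The log2 ratio averaged 6.59 ± 0.11 in CAG and 6.65 ± 0.0030 in PGK lines (SD, n = 2 each), a difference of -0.07 (two-sided exact permutation p = 1). With 2 libraries against 2 the smallest p of this exact test is 0.333. The difference was 0.014 without CAG replicate 1 and -0.14 without CAG replicate 2, so its size and sign rest on single libraries.

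Within miR-106b-25 the shares of the abundant arms overlapped between the groups, and those of the minor arms did not. miR-25-3p gave 61.3% and 63.2% of the cluster's reads in CAG replicates 1 and 2, and 63.0% and 61.6% in PGK replicates 1 and 2. miR-106b-3p gave 19.5% and 18.8% in CAG and 18.3% and 19.5% in PGK libraries. For miR-93-5p the shares were 16.2% and 14.8% in CAG and 15.8% and 16.2% in PGK libraries. Each of these 3 abundant arms overlapped between the groups as a share. The minor arms took larger shares in both CAG libraries than in both PGK libraries. miR-106b-5p took 2.20% and 2.35% of the cluster's reads in CAG against 2.12% and 1.95% in PGK libraries. miR-93-3p took 0.274% and 0.275% in CAG against 0.231% and 0.237% in PGK libraries, and miR-25-5p took 0.568% and 0.614% in CAG against 0.509% and 0.505% in PGK libraries. All these shares have the same denominator, made up mostly of the 3 abundant arms, so the minor arms are not independent readings. The shares were not tested on their own, and no such share was counted for other clusters.

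Compared with their chromosome 13 relatives, the X-linked copies were minor. miR-106a-5p made up 2.08% (95% exact binomial interval 2.02% to 2.14%) and 1.97% (1.84% to 2.11%) of the reads of miR-106a-5p and miR-17-5p together in CAG replicates 1 and 2. In PGK replicates 1 and 2 it made up 2.39% (2.30% to 2.48%) and 2.36% (2.27% to 2.45%). The CAG shares were below the PGK shares, beyond counting error, and the log2 ratio of the pair differed by -0.23 (two-sided exact permutation p = 0.333, the smallest this design allows). miR-17-5p itself stood at 15436 and 13611 CPM in CAG and 13651 and 15397 CPM in PGK libraries, with a log2 fold change of 5.5e-05 (SE 0.15).

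miR-20b-5p made up 0.187% and 0.208% of the summed reads of miR-20b-5p and miR-20a-5p in CAG and 0.183% and 0.182% in PGK libraries. Both CAG shares were above both PGK shares, but the counting intervals of all 4 libraries overlapped, and the log2 ratio differed by 0.11 (two-sided exact permutation p = 0.333). For miR-18b-5p against miR-18a-5p the shares were 0.203% and 0.342% in CAG and 0.297% and 0.254% in PGK libraries, with the CAG libraries at both ends of the range. Other products made only from the X-linked cluster were scarce. miR-19b-2-5p had 3 and 0 reads in CAG and 2 and 4 reads in PGK libraries, and miR-92a-2-5p had no read in any library. The abundant miR-19b-3p and miR-92a-3p can come from chromosome 13 or X, and their counts do not separate the copies.

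**Figure D3:**
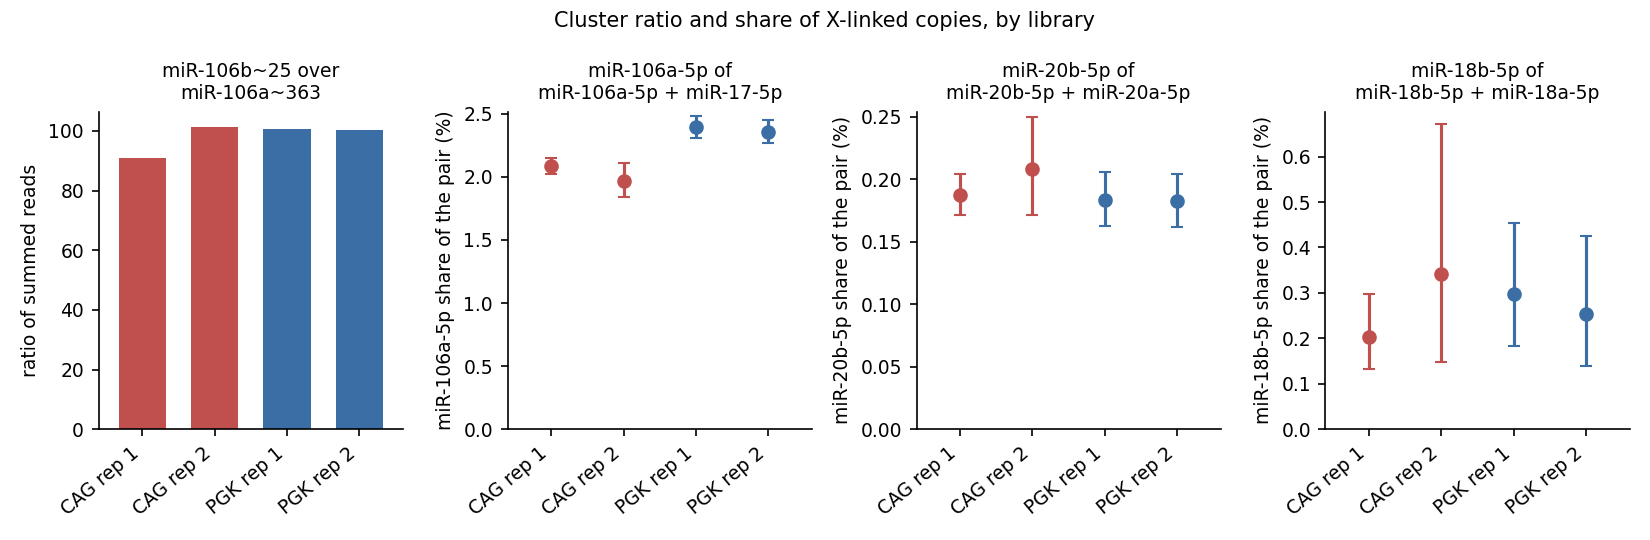
Left, bars of the ratio of summed miR-106b-25 reads to summed miR-106a-363 reads in each library, CAG libraries first; right, 3 panels with the share of each X-linked miRNA in the reads of itself and its chromosome 13 relative, in percent, with 95% exact binomial intervals. The cluster ratio lies between 90.9 and 101.4; the miR-106a-5p share is 1.97% and 2.08% in CAG and 2.36% and 2.39% in PGK libraries, while the shares of miR-20b-5p and miR-18b-5p have overlapping intervals.

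The hairpins of miR-106b-25 differed in which arm gave most of the reads. In the miR-106b hairpin the 3p arm held 89.8% and 88.9% of reads in CAG replicates 1 and 2, and 89.6% and 90.9% in PGK replicates 1 and 2, or 8.03 to 10.03 reads for each 5p read. In the miR-25 hairpin the 3p arm held 99.1% and 99.0% in CAG and 99.2% and 99.2% in PGK libraries. The miR-93 hairpin was the reverse, with 1.67% and 1.83% of reads from the 3p arm in CAG and 1.44% and 1.44% in PGK libraries. Counted in reads, a carrier of the miR-17 seed was thus the main product of the miR-93 hairpin but the minor product of the miR-106b hairpin. Because adapter ligation favours some RNA ends, the ratio of arms within a hairpin is less certain than its comparison across libraries. Among the 173 hairpins with enough reads on both arms, 37 others had a mean 3p share at least as high as miR-106b, and the median share of the less abundant arm was 9.42%.

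Between the lines, the arm ratios of these 3 hairpins did not pass the test, a limma fit of log2 (5p over 3p) across the 173 hairpins, of which 1.73% were called. At an unadjusted p under 0.05 none of the 3 was counted either, against 10 of the 173. For miR-93 the difference in log2 ratio was -0.28 (95% interval -0.87 to 0.30) and for miR-25 it was 0.22 (95% interval -0.32 to 0.76), both with limma adjusted p = 0.970. In the miR-93 and miR-25 hairpins the less abundant arm held a larger share in both CAG libraries than in both PGK libraries. Hairpins outside the cluster, such as let-7a, miR-191 and miR-196a, did so too. Others, such as miR-26b and miR-345, did the reverse. How many of the 173 hairpins did either was not counted, so this is not shown to be a trait of the cluster. Beside the miR-93-3p shares above, miR-25-5p held 0.919% and 0.962% in CAG against 0.802% and 0.814% in PGK libraries. Exact binomial intervals of the CAG shares did not overlap those of the PGK shares for either hairpin, but the standard errors from the limma fit, 0.28 for miR-93 and 0.26 for miR-25, were about as large as the differences. The miR-106b hairpin overlapped, with 5p shares of 10.2% and 11.1% in CAG and 10.4% and 9.07% in PGK libraries. Its log2 ratio difference was 0.14 (95% interval -0.35 to 0.64). Among hairpins outside the cluster, miR-17-3p also held more in CAG, at 0.498% and 0.472% against 0.418% and 0.433% in PGK libraries. The miR-18a and miR-20a hairpins overlapped. miR-26b-3p went the other way, at 0.158% and 0.179% in CAG against 0.306% and 0.260% in PGK libraries. These hairpins are examples and do not show how the 173 divide.

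**Figure D4:**
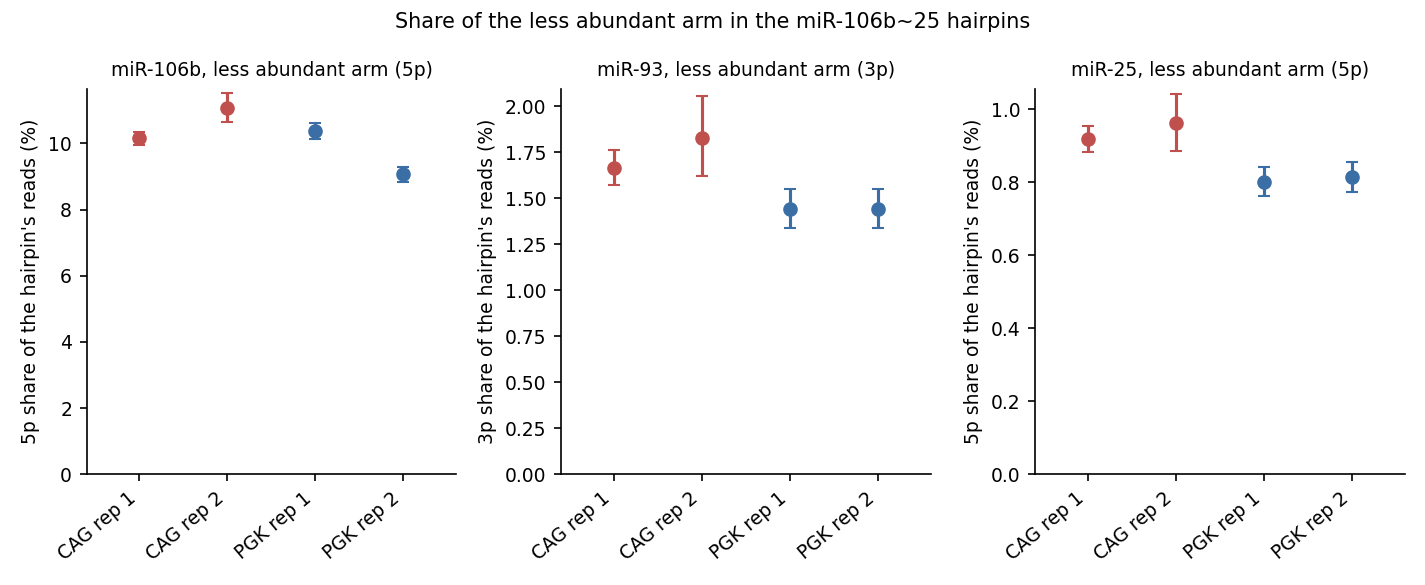
Share of the less abundant arm in the reads of the miR-106b, miR-93 and miR-25 hairpins, in percent with 95% exact binomial intervals, for the CAG and then the PGK libraries; each panel has its own axis from 0. The miR-106b 5p arm lies between 9.07% and 11.1%, and for miR-93 and miR-25 both CAG libraries sit above both PGK libraries.

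In the X-linked cluster the second arms were almost or wholly unread. miR-106a-3p had 0 reads beside 10410 reads of miR-106a-5p over the 4 libraries, which allows a share of up to 0.0288% (3 counts). For comparison, miR-17-3p held 0.461% of the reads of its hairpin. miR-20b-3p had 0 reads beside 1208 of miR-20b-5p, a share of up to 0.248%, where miR-20a-3p held 0.0680% of its own hairpin. The limit for miR-106a-3p is thus below the share of miR-17-3p, while the limit for miR-20b-3p is above that of miR-20a-3p and does not separate them. Any reads of miR-17-5p counted as miR-106a-5p would make the limit for miR-106a-3p too low, and their number is not known. miR-18b-3p had 9 reads beside 69 of miR-18b-5p, a share of 11.5% (95% exact binomial interval 5.41% to 20.8%), and miR-18a-3p held 27.9% of its hairpin. miR-363-5p had no read beside the 5 of miR-363-3p.

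The seed decides which mRNAs a miRNA can pair with, so the members were also set in their seed families as the authors deposited them. The AAAGUGC family, to which miR-93-5p, miR-106b-5p, miR-106a-5p and miR-20b-5p belong, equalled the sum of 8 deposited miRNAs within 1 read. These 4 members supplied 15.1% and 15.6% of the family's reads in CAG replicates 1 and 2, and 17.7% and 17.3% in PGK replicates 1 and 2. miR-93-5p gave most of that, at 12.6% and 12.7% in CAG and 14.8% and 14.7% in PGK libraries, while miR-17-5p and miR-20a-5p made up nearly all the rest. As shares of the family, the CAG libraries were below the PGK libraries for miR-93-5p, and miR-106b-5p overlapped, at 1.71% and 2.02% in CAG and 1.98% and 1.77% in PGK libraries. The family as a whole stood at 43266 and 36112 CPM in CAG and 40548 and 46469 CPM in PGK libraries, with overlap and a log2 fold change of -0.13 (95% interval -0.49 to 0.23; edgeR adjusted p = 0.646).

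In the AUUGCAC family, miR-25-3p supplied 18.6% and 18.1% of reads in CAG and 19.4% and 18.6% in PGK libraries, and miR-363-3p at most 0.000586%. miR-92a-3p supplied 79.0% to 80.3%, and miR-92b-3p and miR-32-5p the rest. miR-367-3p, another carrier of the seed, had no read. The family stood at 110797 and 108205 CPM in CAG and 123249 and 139854 CPM in PGK libraries. Its log2 fold change was -0.26 (95% interval -0.58 to 0.05; edgeR adjusted p = 0.259), close to that of miR-25-3p alone. In the AAGGUGC family miR-18b-5p held at most 0.342% of reads and the family had a log2 fold change of 0.05 (95% interval -0.39 to 0.50). None of these 3 families was called, where 10.4% of 642 families were. None of the 3 had an unadjusted edgeR p under 0.05 either, against 173 of the 642. These tests reuse the reads of the miRNA table and add no independent evidence.

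**Figure D5:**
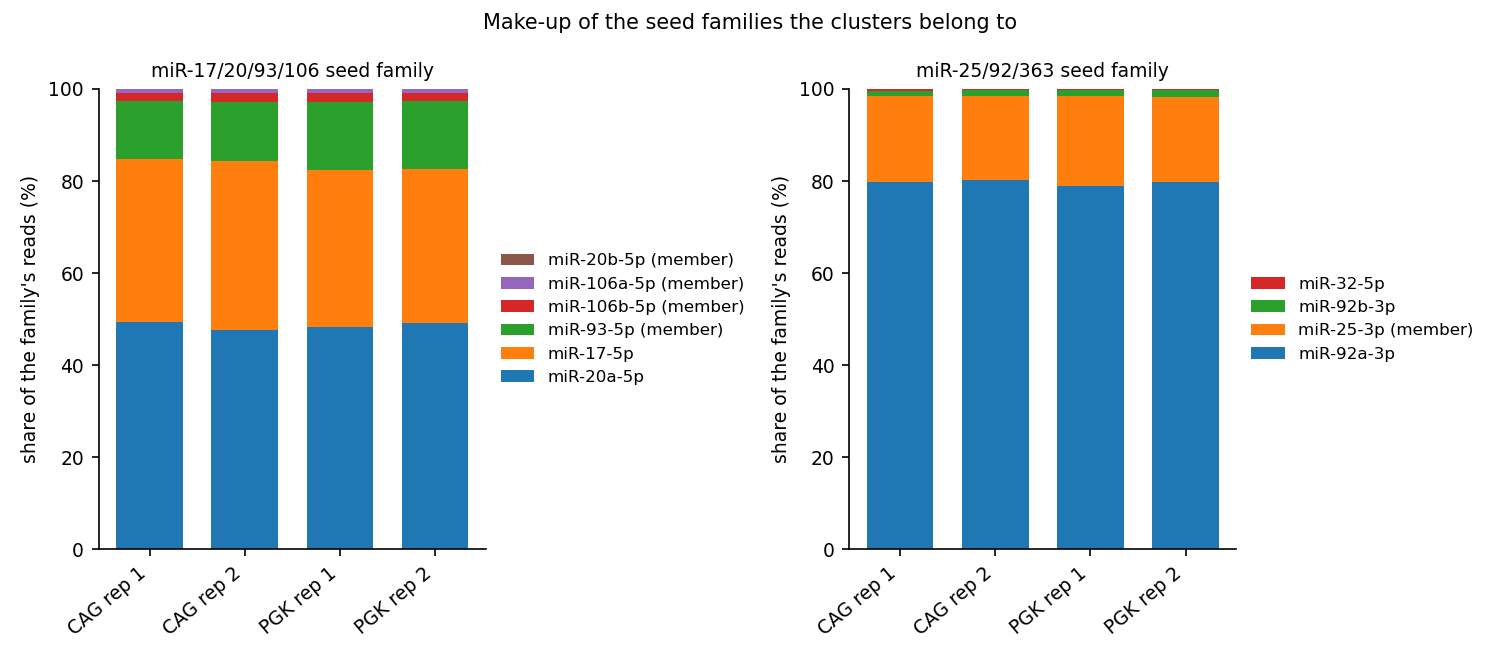
Stacked bars of the share of each miRNA in the reads of the AAAGUGC seed family (left) and the AUUGCAC seed family (right), in percent, for the CAG and then the PGK libraries; miRNAs under 0.05% in every library are not drawn. miR-93-5p takes 12.6% to 14.8% of the first family and miR-25-3p takes 18.1% to 19.4% of the second.

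In the paralogous miR-17-92 cluster, none of the 11 tested entries of 12 was called (edgeR, also none at an unadjusted p under 0.05), beside 110 of 773 miRNAs called and 208 of 773 at the unadjusted p. The median log2 fold change over its entries, minor arms included, was 0.0025, and that over the 6 products of miR-106b-25 was -0.18. A sum weighs the abundant products most. The 12 entries of miR-17-92 summed to 128431 and 122193 CPM in CAG and 131905 and 150303 CPM in PGK libraries, a log2 ratio of the group means of -0.17, against -0.27 for the miR-106b-25 sum. Both sums were lower in both CAG libraries than in both PGK libraries, and these sums were not tested. Most of the miR-17-92 sum was miR-92a-3p, which can also come from the X-linked cluster. It stood at 88676 and 88848 CPM in CAG and 96237 and 110053 CPM in PGK libraries. Of the 11 tested entries, only miR-92a-3p had both CAG libraries below both PGK libraries, and 2 had both above. Over all tested miRNAs these patterns held for 27.4% and 29.8%. Estimates of the miR-17-92 entries ran from -0.22 for miR-92a-3p to 0.42 for miR-19b-1-5p. Of the other carriers of the miR-25 seed, miR-92b-3p was at -0.36 and miR-32-5p at 0.05, and neither was called. Among 216 other miRNAs that averaged 100 CPM or more, the 3 whose log2 levels, centred on their means over the 4 libraries, lay closest to the miR-106b-25 sum were miR-26b-5p, miR-548k and miR-92a-3p, at root mean square distances of 0.0327, 0.0335 and 0.0450. Closest to the miR-106a-363 sum were miR-20a-5p, miR-30c-5p and miR-140-5p, at 0.0573, 0.0576 and 0.0652. With 4 libraries these distances describe the profiles only.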

How the data were processed

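Small RNA libraries of HEK293T landing pad lines (2 CAG, 2 PGK) came from Trizol-extracted total RNA and the NEBNext Small RNA kit, per the labels' protocols. The authors deposited whole-number counts for 2656 mature miRNAs and 2094 seed families, 1 column per library. Trimming, aligner, the rule for multiply matching reads, annotation and build: none is given in the sources used here. Groups and replicate numbers came from the sample titles.

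The test was edgeR 4.0.16 (R 4.3.3; quasi-likelihood, robust, group only) with TMM factors and the default filter (minimum count 10, total 15), which kept 773 miRNAs and 642 families. P-values were two-sided and Benjamini-Hochberg adjusted over all miRNAs or families tested, with a threshold of 0.05. Arm ratios were log2 of 5p over 3p with 0.5 added to each count, for 173 of 863 name-matched pairs whose lower arm had a mean of at least 10 counts, fitted with limma 3.58.1 (trend, robust). Binomial intervals are exact (Clopper-Pearson, 95%, scipy 1.17.1). Replicate counts differed far beyond counting noise (chi-square per degree of freedom 125 for CAG, 66.1 for PGK), so each library counted as 1 replicate. The scripts were tested on simulated data.

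The text names all 10 members, the other products of miR-106a-363, the closest paralogs, the miR-25 family and, per cluster, the 3 miRNAs with the nearest profile. Members and lists were chosen with earlier results of these data known. Alternatives tried were scaling by RLE, upper quartile or library size, dropping the filter or requiring 10 CPM in 2 libraries, DESeq2 1.42.0, limma-voom, a replicate block, thinning, and leaving out each library. For arms they also included a pseudocount of 2 and other minimum counts, and for the cluster ratio other choices of arms.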

Additional observations from a re-analysis of the deposited data

How the results depend on the processing

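No tested member was called under any alternative that gave an adjusted p: 10 for miR-18b-5p (DESeq2 gave none) and 13 for each of the other 8, with a lowest adjusted p of 0.0766 for miR-93-5p. The log2 fold change of miR-20b-5p changed sign with RLE scaling (-0.010), a filter of 10 CPM (-0.0013), DESeq2 (-0.015), thinning to the shallowest library (-0.15), and without CAG replicate 1 or PGK replicate 1 (-0.11 to 0.11 over the 4 libraries left out). Leaving out single libraries also turned miR-93-3p (-0.15 to 0.045), miR-25-5p (-0.14 to 0.0070), miR-18b-5p (-0.28 to 0.17) and the AAGGUGC family (-0.18 to 0.23). The estimates of miR-25-3p, miR-93-5p, miR-106a-5p and both miR-106b arms stayed below 0 under all 13, but their size moved by over 1.5 times for 3 of them: miR-106a-5p was -0.36 without CAG replicate 1 and -0.10 without CAG replicate 2, miR-106b-3p was -0.39 without PGK replicate 1 and -0.14 without PGK replicate 2, and miR-93-5p was -0.21 without CAG replicate 2. The AAAGUGC family was -0.28 and -0.022 without CAG replicates 1 and 2, and -0.26 and -0.061 without PGK replicates 1 and 2. No arm ratio of the 3 hairpins was called or turned under its 9 alternatives, but that of miR-106b ran from 0.04 (without PGK replicate 2) to 0.25 (without PGK replicate 1). The count of called miRNAs was 110 (63 higher, 47 lower), 63 with the replicate block, 70 after thinning, and 16 to 162 when each library was left out (19 without PGK replicate 1, 16 without PGK replicate 2). Called families numbered 67, 21 with the block, and 14 to 60 with a library left out (23 without CAG replicate 1, 14 and 18 without PGK replicates 1 and 2). Called hairpins numbered 3, 0 at a minimum of 100 counts (4 at an unadjusted p under 0.05, limma) and 0 to 2 with a library left out (0 without CAG replicate 2, where 17 had an unadjusted p under 0.05). The cause was not tested. Same-numbered libraries did not deviate together (r = -0.02 across miRNAs), so the block pairs libraries by number only. The cluster ratio difference, -0.07, turned to 0.014 without CAG replicate 1 and was -0.14 without CAG replicate 2; it was -0.10 after thinning and -0.07 with the replicate block, which was chosen after seeing the data. The low counts of miR-18b-5p and miR-363-3p limit what can be said of them.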
